A study of Rattus norvegicus with 8 samples.

Results

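The regions described here are solitary, narrow H3K27ac peaks that were called in rat sciatic nerve both after nerve injury and after sham surgery. H3K27ac, histone H3 acetylated at one lysine of its tail, was profiled by chromatin immunoprecipitation with sequencing (ChIP-seq). The members were chosen by the positions of called peaks alone. Peaks of the injury list and the sham list were pooled and linked into a domain wherever the next peak started at most 12.5 kb after the furthest end so far. A member is a domain of exactly 1 injury and 1 sham peak that overlap by at least 1 bp and together span less than 1000 bp. This rule gave 1142 members among 16558 domains (6.90%, 95% Wilson interval 6.52 to 7.29). They held 3.58% of the 31894 injury peaks and 4.06% of the 28114 sham peaks. All Wilson intervals given here are at 95% and cover counting error over the regions of these lists only.

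The tissue came from male Sprague Dawley rats operated on at postnatal day 25. In one leg the sciatic nerve was transected (Injury), and the leg of the other side had its skin opened only (Sham), so both conditions carry a skin wound, and each sham nerve belongs to an injured animal. Nerve distal to the operated site was collected 72 h later, at postnatal day 28, with 2 H3K27ac samples and 2 inputs per condition. How many animals went into a sample is not given. Deposited were 1 peak list per condition and 1 list of differential peaks per condition, with positions but no peak height, fold, p-value or value per replicate. The depth of each sample is therefore unknown here, no difference could be set against replicate spread, and every share below describes these lists. Whole nerve was used, so the lists do not tell which cells carried the mark, and fewer cells of a type cannot be told apart from less acetylation per cell.

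Acetylation of this lysine is laid down by the coactivators p300 and CBP and marks promoters and enhancers in use. Enhancers of genes central to a cell's identity often lie in dense groups that are acetylated together, whereas an isolated short interval can be a lone enhancer or a weakly acetylated promoter. In the sciatic nerve most nuclei belong to Schwann cells, fibroblasts, endothelial cells and immune cells. Schwann cells distal to a cut leave their myelinating state and take on a repair programme, while macrophages enter the nerve. The positions are on the rat build Rnor_5.0. No gene models or sequence of that build were used here, so members are named by position, without a statement on gene, exon, intron or UTR, the marker genes of the tissue were not checked, and no sequence is printed.

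Members were short in both lists, as the rule limits the merged width to less than 1000 bp. The injury peak of a member measured 414 bp ± 208 on average (SD over 1142 members) and the sham peak 367 bp ± 180, with a median of 299 bp in each. Over the whole lists the mean widths were 529 bp for injury and 471 bp for sham, but the median was also 299 bp in each. The typical member was thus no shorter than the typical peak, and the whole lists also hold wider peaks that the rule leaves out. Peak starts fell on multiples of 100 bp, and the smallest width in the lists was 199 bp. That smallest width was found in 292 injury peaks (25.6%) and 343 sham peaks (30.0%) of the members, and in both peaks of 134 members (11.7%). In 766 members (67.1%, 64.3 to 69.7) both peaks were under 500 bp, the lower end of the average fragment sizes of 0.5 to 2 kb that the labels give for the sonicated chromatin.

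The paired peaks overlap by rule within less than 1000 bp, which bounds how far apart they can lie. Their midpoints were 82.6 bp apart on average (SD 77.2), with a median of 50 bp and a maximum of 450 bp, and the median share of the merged interval covered by both peaks was 0.67. Identical borders were found in 225 members (19.7%, 17.5 to 22.1). A further 505 members (44.2%) shared one border, and 412 (36.1%) shared none. The sham interval lay inside a wider injury interval in 391 members (34.2%), and the injury interval lay inside a wider sham interval in 289 (25.3%). The remaining 237 (20.8%) were staggered. In 106 members (9.28%) the peaks met over 99 bp only, which was the shortest overlap among the members.

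Injury peaks were the wider of the pair more often than sham peaks. They were wider in 475 members (41.6%, 38.8 to 44.5) and narrower in 335 (29.3%, 26.8 to 32.0), and 332 (29.1%) had equal widths. The mean difference, injury minus sham, was 46.4 bp with an SD of 223 bp over members, and its median was 0 bp. In 698 members (61.1%) the widths differed by 100 bp or less. At the ends of the distribution, 179 members (15.7%) were at least 300 bp wider in injury and 76 (6.65%) at least 300 bp wider in sham. On 17 of 21 chromosomes more members were wider in injury than in sham. The whole injury list is also the one with the wider peaks.

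**Figure D1:**
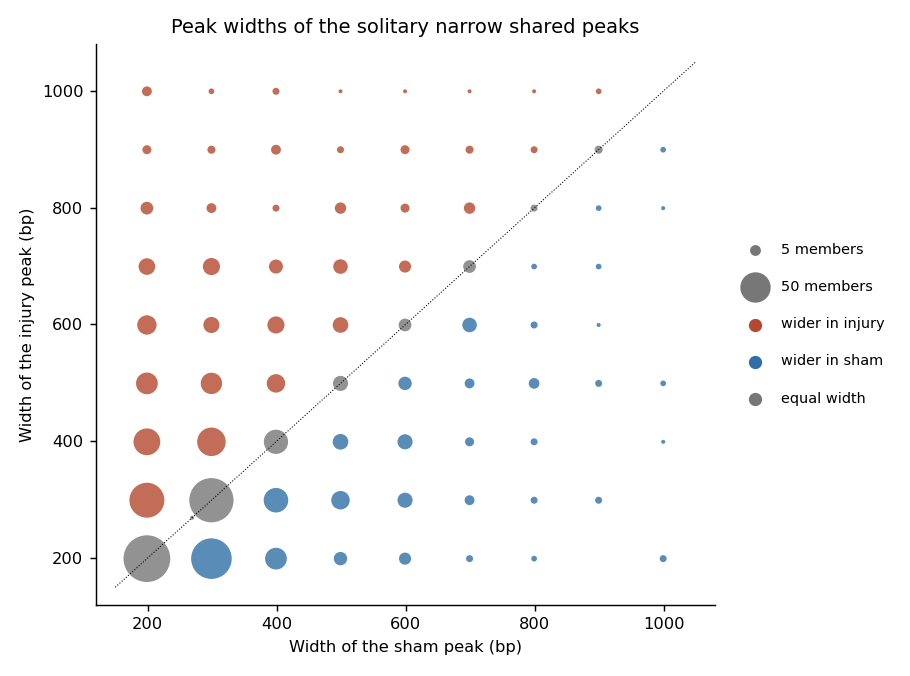
Width of the injury peak (vertical axis, bp) against width of the sham peak (horizontal axis, bp) for the 1142 members, with dot area proportional to the number of members at each pair of widths; the dotted line marks equal widths. The largest dots lie at the lowest widths, where 134 members were at 199 bp in both lists, and 475 members lie above the line against 335 below it.

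The balance differed by the merged width of the member. Merged width is never below the width of the wider peak, and injury peaks of members had the higher mean width. The counts by merged width therefore partly restate the peak widths. Among the 277 members with a merged width of 299 bp, 93 were wider in sham, 58 wider in injury and 82 identical. Among the 206 members of 399 bp the order was reversed, with 90 wider in injury and 59 wider in sham. From there to 999 bp injury was the more frequent wider side at each merged width on the grid, with 49 against 20 at 799 bp and 32 against 16 at 899 bp. At 199 bp all 90 members were identical, as the smallest width leaves no other possibility.

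The members with the largest excess of injury width all had a 999 bp injury peak facing a 199 bp sham peak, and 6 members tied at this difference of 800 bp. The first 5 by position lay at chr2:133286701-133287699 and chr2:260647601-260648599, at chr3:19644101-19645099, at chr4:2761301-2762299, and at chr7:9999301-10000299. The sham peak stood at the left border of the injury peak in the second of these and inside it in the other 4. Around the members on chromosomes 3 and 4, 5 and 6 other injury peaks and no other sham peak were called within 100 kb.

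In the opposite direction, 3 members had a 999 bp sham peak over a 199 bp injury peak. They lay at chr2:64384301-64385299, at chr7:75668501-75669499, and at chr7:125332301-125333299. Behind them 6 members tied at a sham excess of 600 bp, of which the first 2 by position lay at chr2:72843101-72844099 and at chr3:120604101-120604999. The second of the chromosome 7 members had 3 sham peaks and no injury peak within 100 kb, whereas the one at chr2:64384301-64385299 had 10 injury and 7 sham peaks around it. These members were ranked by their width difference, so it is a description of them.

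The widest members with identical borders reached 899 bp. They lay at chr2:104351601-104352499, at chr9:69696701-69697599 and at chr17:19783701-19784599. Next came 2 intervals of 799 bp, at chr1:284698001-284698799 and at chr3:157278501-157279299. Such widths were rare among identical members, of which 173 of 225 (76.9%) were 299 bp or narrower. One identical member, at chr11:93517801-93518069, ended off the 100 bp grid in both lists. It was 269 bp wide and the last peak called on its chromosome in either list, and was picked out after its position was seen.

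The same kind of pair inside larger domains gave the nearest comparison. There, 6961 pairs of 1 injury and 1 sham peak overlapped each other and no other peak and spanned less than 1000 bp. Identical borders were found in 13.8% of them (13.0 to 14.6) and in 19.7% of members. At equal merged width the difference was small: at 299 bp the shares were 29.6% in members (24.5 to 35.2) and 26.5% in the other pairs (24.1 to 29.2), and at 399 bp 10.2% and 8.95%, with overlapping intervals at both widths. Members were shorter, with a mean merged width of 492 bp against 555 bp, and 24.3% of them against 16.7% of the other pairs measured 299 bp. The median share of the merged interval covered by both peaks was 0.67 in members and 0.60 in the other pairs. The share wider in injury was alike, at 41.6% and 41.3% (40.2 to 42.5), while 29.3% of members and 35.5% of the other pairs (34.4 to 36.6) were wider in sham. No test was run on these differences, because the samples have no values of their own.

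Most solitary narrow peaks had no partner in the other condition. Of 4451 domains under 1000 bp with 1 injury peak and at most 1 sham peak, 1142 (25.7%, 24.4 to 26.96) were members, 3125 held no sham peak and 184 (4.13%) held a sham peak that did not overlap. Of the 4045 corresponding domains with 1 sham peak, 28.2% (26.9 to 29.6) were members and 2719 held no injury peak. Over the complete lists, 39.7% of injury peaks and 46.5% of sham peaks overlapped the other list. Solitary peaks without a partner were narrower than those of members, at 311 bp ± 159 for injury and 264 bp ± 120 for sham (SD over 3125 and 2719 peaks).

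The lowest shares with a partner were those of the narrowest peaks. Among solitary narrow injury peaks of 199 bp, 15.3% (13.7 to 16.9) overlapped a sham peak, against 34.5% (30.4 to 38.8) at 399 bp and 53.7% (41.9 to 65.1) at 899 bp. Solitary narrow sham peaks went from 15.6% (14.1 to 17.2) at 199 bp to 47.4% at 399 bp and 67.8% (58.8 to 75.7) at 599 bp. Beyond that width the sham shares were 61.5%, 60% and 65.4% (46.2 to 80.6), the last over 26 peaks, with overlapping intervals. At the same width of 199 bp, peaks of all other domains gave higher shares: 24.3% (23.3 to 25.2) of the injury and 30.3% (29.3 to 31.3) of the sham peaks overlapped the other list. From 599 bp on the intervals of both kinds of peak overlapped in either list. The rule for solitary domains allows at most 1 peak of the other list near a peak, and a wider peak can meet one more easily, so these shares partly restate the rule.

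**Figure D2:**
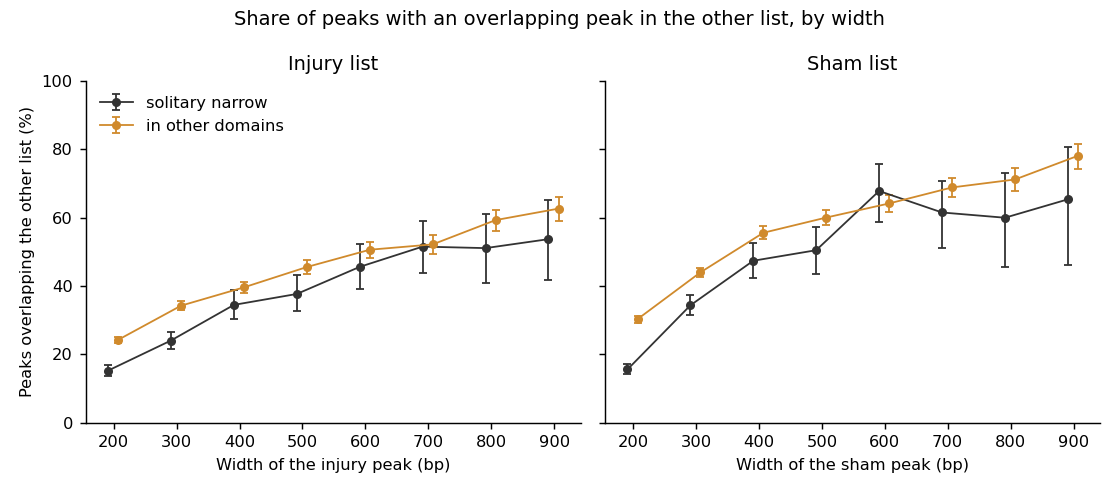
Share of peaks overlapping the other list (vertical axis, %) by peak width (horizontal axis, bp), for solitary narrow domains (dark) and all other domains (orange), with 95% Wilson intervals; injury peaks are on the left and sham peaks on the right. Solitary injury peaks go from 15.3% at 199 bp to 53.7% at 899 bp and solitary sham peaks from 15.6% at 199 bp to 67.8% at 599 bp, with no further increase beyond 599 bp for sham, and solitary peaks lie below the others at the lowest widths.

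Members were almost absent from the authors' differential lists. Over all peaks, 13.5% of injury peaks overlapped a peak of the authors' deposited injury differential list, and 11.7% of sham peaks one of the sham list. Among members 1 of 1142 did so for injury (0.0876%, 0.0155 to 0.494) and 0 for sham (0 to 0.335%). Like pairs inside larger domains were nearly absent too, with 29 of 6961 differential (0.417%, 0.290 to 0.598), an interval that overlapped that of the members. In the authors' deposited tables, 4240 of 4312 injury differential peaks (98.3%) overlapped no sham peak and 3278 of 3290 sham differential peaks (99.6%) no injury peak, whereas members overlap by rule, so the low count is no separate evidence of stable acetylation. Solitary narrow peaks without a partner were differential in 775 of 3125 cases for injury (24.8%, 23.3 to 26.3). For sham this held for 833 of 2719 (30.6%, 28.9 to 32.4). Most solitary peaks without a partner were thus not in the differential lists. Both shares were above those of the complete lists, which however include many peaks with an overlap between conditions (39.7% for injury, 46.5% for sham). Such peaks were nearly missing from the differential lists, so the higher shares partly restate the lack of a partner. How solitary peaks compare with all peaks lacking an overlap was not tested.

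The single differential member lay at chr3:19644101-19645099. Its injury peak of 999 bp faced a sham peak of 199 bp at chr3:19644201-19644399, and it was one of the members with the largest excess of injury width. The 5 other injury peaks within 100 kb had no sham peak among them.

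Members stood more than 12.5 kb from other peaks, as the linking rule requires of every domain. The median distance to the nearest other peak of either list was 34.6 kb (quartiles 20.6 and 72.8 kb), 421 members had none within 50 kb and 210 (18.4%, 16.2 to 20.7) none within 100 kb. Solitary narrow peaks without a partner had like medians of 33.6 kb for injury and 40.4 kb for sham, and none within 100 kb in 17.1% (15.8 to 18.4) and 25.2% (23.6 to 26.9) of cases. An injury differential peak lay within 100 kb of 28.02% of members (25.5 to 30.7), 34.3% of solitary injury peaks without a partner (32.6 to 36.0) and 22.4% of solitary sham peaks without one (20.9 to 24.0). For sham differential peaks the shares were 20.9% (18.7 to 23.4), 20% (18.6 to 21.4) and 25.1% (23.5 to 26.8). The number of peaks nearby differed too, and its part in these shares was not tested. The mean number of injury peaks within 100 kb was 4.32 for members, 4.15 for solitary injury peaks and 3.17 for solitary sham peaks without a partner. Counted per nearby injury peak, 10.2% were differential around members, 15.1% around injury peaks without a partner and 11.2% around sham peaks without one, so the order of members and sham peaks was the opposite. Per nearby sham peak the shares were 8.09%, 10.1% and 12.9%. The complete lists held 13.5% and 11.7%.

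The most isolated member lay at chr7:7630801-7630999, a 199 bp interval with identical borders and no other peak for 2297 kb on one side and 2368 kb on the other. Next came chr4:160672301-160672699, with 1821 kb to the nearest other peak, chr8:19945901-19946299 (1577 kb), chr2:187664201-187664399 (1565 kb) and chrX:126566601-126566899 (1556 kb). Of these 5, the members on chromosomes 7, 2 and X had identical borders. On chromosome 4 a 199 bp injury peak sat inside a 399 bp sham peak, and on chromosome 8 a 299 bp injury peak shared its start with a 399 bp sham peak.

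Pairs near the limits of the rule were counted on either side. With a merged width of 999 bp, 31 members were just inside, with median widths of 999 bp for injury and 699 bp for sham. With 1099 bp, 33 overlapping pairs were just outside, with medians of 1099 and 899 bp. For 46 members the nearest other peak was 12.5 to 13.5 kb away, and 60 pairs that met the rest of the rule were left out because it was 11.5 to 12.5 kb away.

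The line number within a list was the only other value deposited, and no source used here says what sets the order of the lines. In the injury list 95.1% of the chromosome 1 peaks and 96.3% of the chromosome 14 peaks were found among the last 20% of lines, so medians, shares by part of that list and correlations are given without these chromosomes, which leaves 950 members. Counts of first lines and the line numbers of single members refer to the complete lists. The median of the 950 members stood at 35.01% of the injury lines (quartiles 14.9 and 63.1%) and 42.95% of the sham lines (18.1 and 74.02%). These percentages count all lines of a list, those of chromosomes 1 and 14 included. Since most peaks of these chromosomes stand at the end of the injury list only, the injury and sham percentages cannot be compared with each other. Solitary narrow peaks without a partner stood later, at medians of 48.1% of the injury and 72.03% of the sham lines. Other overlapping pairs stood near the members. Without chromosomes 1 and 14, the medians of like pairs inside larger domains were 36.0% of the injury and 41.8% of the sham lines. For solitary overlapping pairs of 1000 bp or more they were 35.6% and 46.5%.

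Along both lists the share of solitary narrow peaks with a partner was highest among the first lines. In the sham list, all chromosomes included, it was 50.9% (47.1 to 54.8) in the first 20% of the lines and 17.1% (15.2 to 19.2) in the last. In the injury list it was 38.7% (35.1 to 42.4) in the first 20%, 17.8% (15.2 to 20.8) in the middle and 23.8% (21.05 to 26.7) in the last. At fixed widths the first lines also had the higher shares. Among sham peaks of exactly 199 bp the share was 30.5% (25.3 to 36.2) in the first and 9.28% (7.52 to 11.4) in the last 20% of the lines. Among injury peaks of 199 bp the corresponding shares were 24.4% (19.5 to 30.0) and 16.7% (13.4 to 20.6), and their intervals overlapped. At 299 bp the intervals did not overlap in either list, with 37.9% (31.7 to 44.5) and 24.6% (19.2 to 30.99) for injury and 56.1% (49.1 to 62.8) and 23.6% (19.1 to 28.8) for sham.

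**Figure D3:**
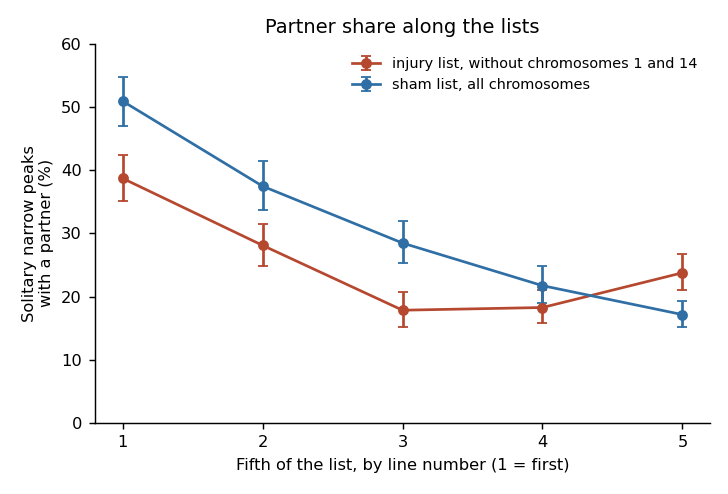
Share of solitary narrow peaks with an overlapping peak in the other list (vertical axis, %) in 5 equal parts of each list by line number (horizontal axis, 1 = first lines), with 95% Wilson intervals. The sham list (blue) goes from 50.9% to 17.1%, and the injury list without chromosomes 1 and 14 (red) from 38.7% to 17.8% in the middle part and 23.8% in the last.

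The very first lines of both lists were rich in members. Among the first 100 lines 20 were members in the injury list (20%, 13.3 to 28.9) and 23 in the sham list (23%, 15.8 to 32.2), against 3.58% and 4.06% of the complete lists. Of these, 12 and 20 had identical borders. Overlapping peaks of any kind were frequent there: 86 of the first 100 injury and 94 of the first 100 sham lines overlapped the other list. Over the complete lists these shares were 39.7% and 46.5%. The first 100 lines were also rich in identical peaks of any domain, with 50 in the injury list and 76 in the sham list, against 3.98% and 4.51% overall. Like pairs inside larger domains filled 57 and 64 of the first 100 lines, which is 0.819% and 0.919% of those pairs, compared with 1.75% and 2.01% of members.

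In 9 members both peaks stood within the first 50 lines of their list, and all 9 had identical borders. These members were picked out after their places were seen. The foremost was chr2:134264701-134264999, line 1 of the injury and line 2 of the sham list. The member at chr18:36702601-36702899 was line 3 in both, and chr18:46254201-46254399 was line 4 in both. The next were chr3:43001-43699 (lines 5 and 9 of the injury and sham lists) and chr12:26796401-26796699 (lines 15 and 8). On chromosome 3 this was the first peak called on the chromosome in either list. The other 4 lay at chr2:260559201-260559499, chr15:26343601-26344199, chr14:94572501-94572799 and chr4:145459301-145459499. Their widths ran from 199 to 699 bp. The input libraries were not analysed here.

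The places of a member in both lists were compared separately for identical and differing borders. Without chromosomes 1 and 14, Spearman's rho between the line numbers was 0.52 (Pearson's r 0.47) over 184 members with identical borders and 0.08 (r 0.08) over 766 with differing borders. Among like pairs of larger domains rho was 0.38 over 731 identical and 0.18 over 4882 differing pairs. These correlations run across sites that share the same pooled libraries, and are given as a description. Identical members were found at both ends: they made up 28.6% of the members in the first 20% of the sham lines, 11.2% in the next 20% and 22.9% in the last 20%.

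**Figure D4:**
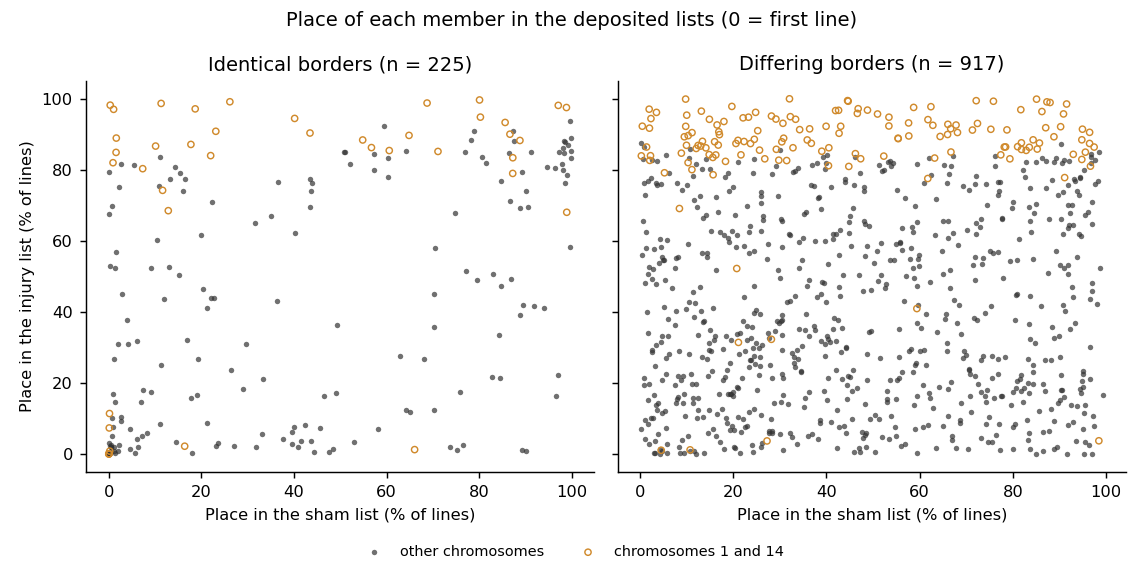
Place of each member in the injury list (vertical axis, % of lines) and in the sham list (horizontal axis, % of lines, 0 = first line), for 225 members with identical borders (left) and 917 with differing borders (right); open orange circles are members of chromosomes 1 and 14, which stand near the end of the injury list. On the left, points gather in the lower left and upper right corners, and on the right they spread over the plane.

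Members were found on all 20 autosomes and on chromosome X. As a share of the domains of a chromosome they ranged from 4.57% to 8.45% on the autosomes. On 19 of 21 chromosomes the Wilson interval held the overall 6.90%. The exceptions were chromosome 17, with 28 of 613 domains (4.57%, 3.18 to 6.52), and chromosome X, with 38 of 282 (13.5%, 9.98 to 18.0). Relative to called peaks, chromosome X held 10.1 members per 100 injury peaks, against 2.24 to 4.34 on the autosomes, and 9.55 per 100 sham peaks, against 2.88 to 4.59.

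On chromosome X solitary narrow domains of all kinds were frequent, at 60.3% of its domains (54.5 to 65.8), against 38.3 to 46.2% on the autosomes. The members there also had the longest median distance to the nearest other peak, 66.1 kb against 28.1 to 44.6 kb on the autosomes. Among the solitary narrow injury peaks of chromosome X 33.6% (25.6 to 42.7) had a sham partner, and the interval held the overall 25.7%. Of the sham peaks there 34.9% (26.6 to 44.2) had an injury partner, against 28.2% overall. As a share of all its solitary narrow domains, members made up 22.4% on chromosome X (16.7 to 29.2), above the overall 16.3%. Chromosomes 1 (19.7%, 17.0 to 22.7) and 7 (20.5%, 16.9 to 24.8) were also above it. A partner share with an interval above that of all chromosomes was found for injury on chromosome 1 (31.1%, 27.1 to 35.4). For sham this held on chromosomes 1 (32.5%, 28.3 to 36.9), 7 (35.0%, 29.2 to 41.3) and 12 (39.8%, 30.2 to 50.2), but not on chromosome X. On chromosome 17 the injury share was 16.6% (11.7 to 22.9), below the overall share, and the sham share was 21.2% (15.1 to 28.9), whose interval held the overall 28.2%. Chromosomes X and 17 were singled out after their values were seen, and no difference between chromosomes was tested.

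**Figure D5:**
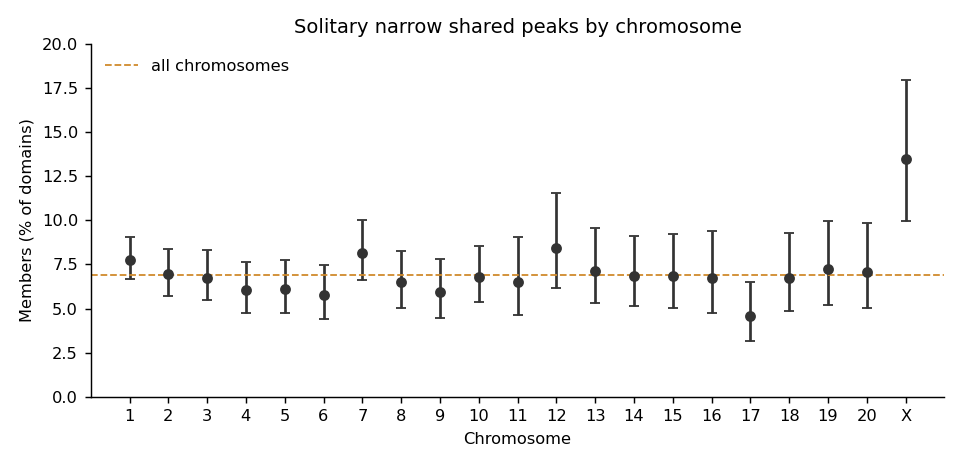
Members as a share of all domains (vertical axis, %) on each chromosome (horizontal axis), with 95% Wilson intervals and the share over all chromosomes (dashed line, 6.90%). Chromosome X, at 13.5%, is above the line and chromosome 17, at 4.57%, below it, while the intervals of the other 19 include it.

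Domains were also counted in their order along the chromosomes. Of the 1142 members, 949 had no other member as a neighbouring domain, 160 formed 80 pairs of neighbours, and the longest run was 5 consecutive members. The domain nearest to a member was another member in 101 cases (8.84%, where members are 6.90% of all domains), a domain with several peaks of a list in 603 (52.8% against 53.4%), a solitary narrow injury peak in 211 (18.5% against 18.9%) and a solitary narrow sham peak in 174 (15.2% against 16.4%). No test was run on these counts.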

How the data were processed

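The analysis used the authors' deposited lists of peaks for injured and sham nerve and of differential peaks for each. Per the submitters' processing notes, CASAVA 1.8.2, Bowtie, HOMER and the build Rnor_5.0 were used. No source used here gives the calling threshold, the differential test or how samples and inputs were combined. Per the file columns, the deposited values are start and end positions in bp and a line number. Blank lines were dropped and 8 starts written with an exponent were read as whole numbers. Starts are printed 1-based, and widths are ends minus starts as deposited. Linking and classification (Python 3.11.15, pandas 2.3.3, numpy 2.4.6, scipy 1.17.1, matplotlib 3.10.9) were tested on simulated lists with known classes. With 1 list per condition and no value per replicate no test between conditions was run. Shares carry 95% Wilson intervals.

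Regions were named by fixed rules: the 5 most isolated members, the 5 with the largest width excess in either direction, the 5 widest with identical borders, ties by position, and every member overlapping a differential peak. Members and rules were chosen with earlier results of these data known. Sequence composition and motifs were not run, since no Rnor_5.0 sequence was used. Alternatives covered link distance, width limit, overlap, peaks at the smallest width and chromosomes 1 and 14.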

Additional observations from a re-analysis of the deposited data

How the results depend on the processing

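No paired analysis was possible because the lists hold no value per replicate, and no replicate could be left out. Of 36 comparisons of 6 results with 6 other settings, 17 stayed within the interval of the reported share (within 1.5 times for the number of members) and 19 did not. There were 1716 members at a link distance of 5 kb, 421 at 50 kb and 745 with a reciprocal overlap of 50%. The share wider in injury was 34.9% at 50 kb, 34.9% under a width limit of 600 bp and 32.3% with the reciprocal overlap. It exceeded the share wider in sham (31.8%, 29.2% and 29.8%) in these and the other settings. At 50 kb (30.5 to 39.6) and with the reciprocal overlap (29.1 to 35.8) its interval held the share wider in sham. Identical borders were found in 25.7%, 24.6% and 30.2% under the same 3 settings. The differential share was 0% in these and with peaks of the smallest width left out. Partner shares under 600 bp came to 22.3% (injury) and 24.2% (sham), and with the reciprocal overlap 16.7% and 18.4%. For sham it was also 25.5% at 50 kb and 34.0% without peaks of the smallest width. A shorter link distance admits less isolated pairs, and a reciprocal overlap drops pairs of unequal width. Unknown depth limits every share.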
